A study of Sus scrofa with 4 samples.

Results

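CHRNG and TNNT2 are muscle genes known for a fetal form of use. They were chosen by name, with earlier results of these data known. They are 2 of the 22658 features listed in the deposited tables, and their levels are described in every library. RNA-seq was carried out on longissimus dorsi (LD) muscle, the long muscle of the back, from 12 castrated males of the Laiwu breed, a local Chinese pig known for fat within its muscle. By label all were wild type and shared the same kind of housing and diet, so age was the single labelled factor that separated the groups. The groups were 60, 120, 240 and 400 d of age, with 3 pigs and 1 library per pig at each age. The libraries are called 60d-1 to 400d-3 here. All ages were postnatal, so no fetal muscle served as a reference for the fetal form.

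The acetylcholine receptor of the neuromuscular junction is a ring of 5 subunits that opens when the nerve releases acetylcholine. Fetal and denervated muscle fibres build it with the gamma subunit, which CHRNG encodes, and innervated mature fibres replace gamma with epsilon, which CHRNE encodes. Troponin T ties the calcium-sensing troponin complex to the thin filament, and TNNT2, the main troponin T of the heart, is also used by embryonic skeletal muscle before the skeletal forms of slow (TNNT1) and fast (TNNT3) fibres take over.

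On the pig genome build Sscrofa10.2, CHRNG (ENSSSCG00000016288) was listed on chromosome 15 from 146951386 to 146957884 on the plus strand, with a transcript length of 1970 bases. TNNT2 (ENSSSCG00000023031) was listed on chromosome 10 from 28159006 to 28173142 on the minus strand, with a transcript length of 1214 bases. The pairing of this CHRNG identifier with the symbol comes from the study, while a reference table pairs the symbol with another identifier. That other identifier was matched to none of the features, so no second CHRNG entry was set aside. Counts were taken over whole genes, so the values do not tell exons or isoforms apart.

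Each library held a total of 9713813 to 13325327 counts. Of the 7 markers of skeletal muscle looked for, 6 could not be matched to a feature and the other, the skeletal actin ACTA1, was listed at 0 in 7 of the 12 libraries and at 33096 to 57332 FPKM in the other 5, so that list could not serve as a check of the tissue. The troponin C of fast fibres, TNNC2, had mean levels of 12566 to 21443 FPKM at the 4 ages (FPKM is the number of fragments scaled for transcript length and for the mapped fragments of the library). Of the 6 markers of heart muscle, 3 were matched: NPPB was at 0 in every library, MYBPC3 stayed at or below 0.043 FPKM, and MYH6 had means of 1043 to 1646 FPKM, but its near-identical neighbour MYH7 could not be matched, so reads of the slow-fibre myosin may stand under MYH6.

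The ages of the libraries carry a conflict between sources. The lists of changed genes distributed with the study give a level for each age, and these levels matched libraries under other labels. The listed 60 d levels fitted the 400 d label best, the listed 120 d levels the 240 d label, the listed 240 d levels the 60 d label and the listed 400 d levels the 120 d label. In these pairings the log2 values differed by a median of 0.0194 to 0.0196, over 206 to 1025 genes, against 0.475 in the closest other pairing. Another list distributed for 120 d held counts equal to those of library 120d-3 for 5980 of 5980 features, which is the age that its label gives. The labelled ages were used throughout. A test for any difference among the 4 groups does not depend on which age each group is given, but the directions do. With the ages of the lists, the mean levels given below for 400, 240, 60 and 120 d would be those of 60, 120, 240 and 400 d, so 5 of the 6 pairs of ages would change direction for both genes. From 240 to 400 d the fitted log2 change would stay below 0, at -2.30 for CHRNG and -0.22 for TNNT2, and neither would pass the test.

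The mean level of CHRNG was lower at each later labelled age. At 60 d its levels were 13.4, 8.10 and 1.12 FPKM in libraries 1, 2 and 3, from 213, 195 and 20 counts. At 120 d they were 0.700, 2.57 and 1.48 FPKM, from 13, 55 and 26 counts. Library 60d-3 lay within the range of the 120 d libraries, so these ages overlapped, and the highest 60 d library was 12.0 times the lowest. At 240 d CHRNG had 0.285, 0.114 and 0.291 FPKM, from 6, 3 and 8 counts. At 400 d it had 0, 0.174 and 0.155 FPKM, from 0, 4 and 3 counts. The 240 and 400 d libraries overlapped each other, and all 6 lay below all 6 libraries of 60 and 120 d, as in 6.69% of the features tested.

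The mean CHRNG level was 7.55 ± 6.18 FPKM (SD, n = 3) in 60 d muscle and 1.58 ± 0.938 in 120 d muscle. It was 0.230 ± 0.101 FPKM in 240 d muscle and 0.110 ± 0.0953 in 400 d muscle. The low counts set the precision of the late ages. The 4 counts of library 400d-2 made 0.356 CPM (the count scaled by the total of the library), with a 95% exact Poisson interval of 0.0969 to 0.910. The 0 counts of library 400d-1 allowed a level of up to 0.225 CPM, taking 3 counts as the limit. In library 60d-1, CHRNG had 21.8 CPM, with an interval of 19.0 to 25.0. These intervals cover counting error only.

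TNNT2 was present at higher levels than CHRNG in every library, and the neighbouring ages between which it changed past the test were 120 and 240 d. At 60 d its levels were 114, 40.7 and 58.1 FPKM, from 700, 359 and 369 counts. At 120 d they were 21.3, 88.0 and 76.6 FPKM, from 152, 718 and 517 counts. The 60 and 120 d libraries overlapped, with library 120d-1 below the other 5. At 240 d TNNT2 had 9.18, 5.41 and 11.4 FPKM, from 64, 40 and 101 counts. At 400 d it had 4.72, 5.15 and 2.42 FPKM, from 52, 49 and 20 counts. In FPKM all 400 d libraries were below all 240 d libraries, as in 9.13% of the features. The highest of the former and the lowest of the latter differed by little. In CPM these ages overlapped, with 3.90 in library 400d-1 and 4.36 in 400d-2 against 3.36 in 240d-2. The deposited FPKM and CPM were not in a fixed ratio across libraries. TNNT2 had 58.1 FPKM and 34.4 CPM in library 60d-3, but 5.15 FPKM and 4.36 CPM in 400d-2. Summed over all features, FPKM ran from 641966 in library 240d-3 to 1059679 in 60d-1. All 6 libraries of 240 and 400 d were below library 120d-1.

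The mean TNNT2 level was 71.0 ± 38.4 FPKM (SD, n = 3) in 60 d muscle and 62.0 ± 35.6 in 120 d muscle. It was 8.67 ± 3.04 FPKM in 240 d muscle and 4.09 ± 1.47 in 400 d muscle. The coefficient of variation within an age was 35.0 to 57.5% for TNNT2 and 43.8 to 87.0% for CHRNG.

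**Figure D1:**
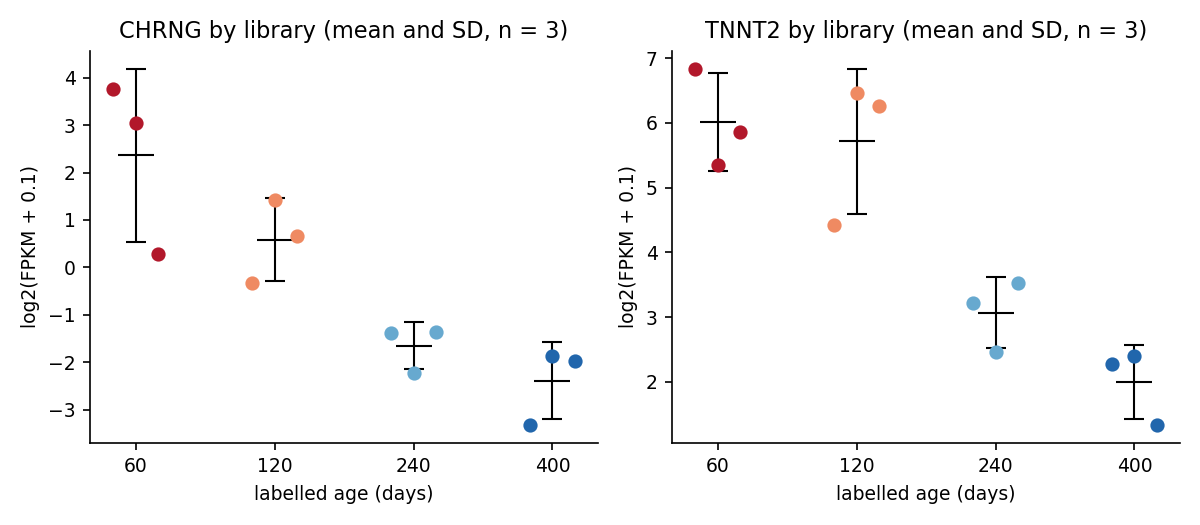
Levels of CHRNG (left) and TNNT2 (right) in the 12 libraries as log2(FPKM + 0.1) against the labelled age in days. Points are libraries, with numbers 1 to 3 from left to right within an age, and the black marks are the mean and SD of 3 libraries. For both genes all 240 and 400 d points lie below all 60 and 120 d points.

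The course over the 4 ages was tested on the counts with edgeR's quasi-likelihood test in 1 fit of all 12 libraries, with Benjamini-Hochberg adjustment over the 13314 features that had a mean of at least 10 counts at 1 or more ages. TNNT2 reached that mean at every age, and CHRNG at 60 and 120 d alone. CHRNG differed among the ages with an adjusted p of 0.00436 in edgeR's quasi-likelihood test, and TNNT2 with an adjusted p of 0.00382. At the threshold of 0.05, 19.8% of all features tested were called, and 11.2% were called with the lower level at 400 d than at 60 d, as both genes were. An exact permutation test of the levels as log2(FPKM + 0.1), over all 369600 ways to place the 12 libraries in 4 groups of 3, gave p = 0.00383 for CHRNG and p = 0.00188 for TNNT2, where the smallest p it can give is 6.49e-05. With 1 FPKM added in place of 0.1, the permutation test gave p = 0.0194 for CHRNG and p = 0.00227 for TNNT2. The log2 level of CHRNG then changed by -2.56 rather than -4.75 from 60 to 400 d. In 12.4% of the features the mean FPKM was lower at each later age, both genes included.

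Of the steps between neighbouring ages, that from 120 to 240 d held the largest change of TNNT2. In the first step, from 60 to 120 d, the log2 change of CHRNG was -2.30 (SE 0.73, adjusted p = 0.384 in edgeR's quasi-likelihood test), which did not pass. For TNNT2 it was -0.22 (SE 0.51, adjusted p = 0.925 in edgeR). No feature was called between 60 and 120 d by edgeR (0.0%), although 1384 features had an unadjusted p under 0.05 and DESeq2 called 70.

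In the step from 120 to 240 d, TNNT2 fell by 2.82 as a log2 value (SE 0.56, adjusted p = 0.0277 in edgeR). In this step 5.12% of the features were called, 2.91% with the lower level at the later age. This call was lost in edgeR without library 120d-2, 120d-3 or any 1 of the 240 d libraries, with adjusted p between 0.0531 and 0.0955. CHRNG had a change of -2.48 over this step (SE 0.89, adjusted p = 0.104 in edgeR), which did not pass although the libraries of the 2 ages did not overlap. Such a separation, with the later age lower, was found in 18.0% of the features. DESeq2 called CHRNG in this step with an adjusted p of 0.0260, and edgeR did so without library 60d-3, with an adjusted p of 0.0440, and in a fit of these 6 libraries alone, with an adjusted p of 0.0487.

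From 240 to 400 d neither gene passed the test. The log2 change was -1.27 for CHRNG (SE 1.19, adjusted p = 0.791 in edgeR) and -0.80 for TNNT2 (SE 0.57, adjusted p = 0.730 in edgeR). The TNNT2 libraries of these ages were separate in FPKM but overlapped in CPM, and the test is made on counts. No feature was called by edgeR in this step (0.0%), with 1176 at an unadjusted p under 0.05 and 58 called by DESeq2.

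Over the wider spans both genes passed. Between 60 and 400 d, CHRNG fell by 6.05 as a log2 value (SE 0.98, adjusted p = 0.00275 in edgeR), the 14th largest fall of 13314 features. TNNT2 fell by 3.84 (SE 0.59, adjusted p = 0.00219 in edgeR) and ranked 61st. Between these ages 23.5% of the features were called, 12.7% with the lower level at 400 d. The size of the CHRNG change rests on 0 to 4 counts per library at 400 d and so has a wide counting error, and it was -5.38 without library 60d-1 and -6.73 without 400d-2, the ends of its range when 1 library was left out.

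From 60 to 240 d, where 11.3% of the features were called and 5.83% called lower at 240 d, CHRNG fell by 4.78 (SE 0.88, adjusted p = 0.0116 in edgeR) and TNNT2 by 3.04 (SE 0.57, adjusted p = 0.0123 in edgeR). Without library 240d-2 neither passed, with an edgeR adjusted p of 0.0523 for CHRNG and 0.0529 for TNNT2. From 120 to 400 d, where 13.9% were called and 8.32% called lower at 400 d, CHRNG fell by 3.75 (SE 1.01, adjusted p = 0.0326 in edgeR) and TNNT2 by 3.62 (SE 0.59, adjusted p = 0.00801 in edgeR). The CHRNG call of this span was lost without library 120d-2, 120d-3 or any 1 of the 400 d libraries, with edgeR adjusted p between 0.0545 and 0.114.

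**Figure D2:**
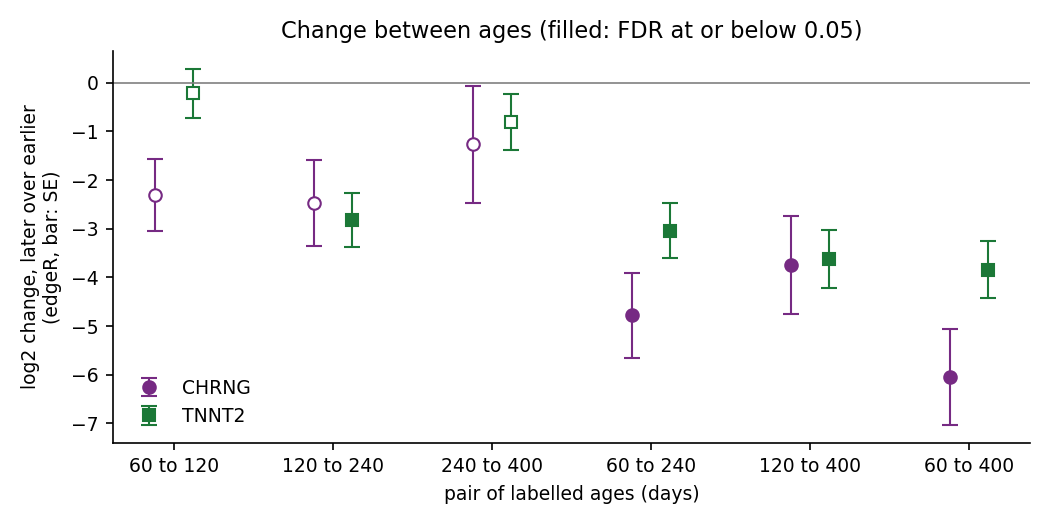
Log2 change of CHRNG (circles) and TNNT2 (squares) for the 6 pairs of labelled ages, later over earlier, from edgeR with the SE as bars. Filled marks passed an FDR of 0.05: all 3 pairs that span more than 1 step for both genes, and the step from 120 to 240 d for TNNT2.

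Within a library, the fetal subunit of the receptor was set against the adult one. CHRNE had 6.31, 4.15 and 1.73 FPKM in the 60 d libraries and 1.68, 3.17 and 2.90 in those of 120 d. It had 2.41, 0.540 and 1.70 FPKM in the 240 d libraries and 1.42, 2.27 and 2.75 in those of 400 d. Its libraries overlapped at all ages and it was not called over the 4 ages (edgeR adjusted p = 0.277). CHRNE overlaps MINK1 on the opposite strand, and whether the counting used strand is not given in the sources used here, so some CHRNE reads may belong to that gene. MINK1 itself was not called (edgeR adjusted p = 0.593).

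CHRNG made up 68.1, 66.1 and 39.3% of the summed FPKM of CHRNG and CHRNE in the 60 d libraries and 29.4, 44.8 and 33.9% in those of 120 d. It made up 10.6, 17.4 and 14.6% at 240 d and 0, 7.10 and 5.33% at 400 d. Thus CHRNG was the higher of the pair in libraries 60d-1 and 60d-2 only, and the ages were separate except for 60d-3, which lay below 120d-2. The separation of 240 from 400 d rests on few CHRNG counts. The closest shares came from 6 counts in library 240d-1 and 4 in 400d-2. The 95% exact Poisson intervals of these counts, 0.197 to 1.17 and 0.0969 to 0.910 CPM, overlapped. The mean share was 57.8 ± 16.1% (SD, n = 3) for 60 d, 36.0 ± 7.89% for 120 d, 14.2 ± 3.44% for 240 d and 4.15 ± 3.70% for 400 d. The exact permutation test of the log2 ratio of CHRNG to CHRNE, with 0.1 FPKM added to each, gave p = 0.000130.

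TNNT2 was a small part of the troponin T message at every age. TNNT1, the slow-fibre troponin T, had means of 2810, 2074, 2442 and 2986 FPKM at 60, 120, 240 and 400 d and was not called (edgeR adjusted p = 0.619). The fast-fibre gene TNNT3 could not be matched to a feature, so TNNT2 was set against TNNT1 alone. Relative to TNNT1, TNNT2 stood at 2.57, 1.68 and 3.71% in the 60 d libraries and at 0.924, 4.0 and 4.47% in those of 120 d. It stood at 0.305, 0.342 and 0.418% at 240 d and at 0.166, 0.224 and 0.0634% at 400 d. By FPKM the 60 and 120 d libraries overlapped, while 240 and 400 d were separate from them and from each other. By counts the last 2 ages overlapped. Library 400d-2 had 49 counts of TNNT2 to 20391 of TNNT1, a slightly higher ratio than the 64 to 27239 of 240d-1. The exact permutation test of the log2 ratio gave p = 0.00130.

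**Figure D3:**
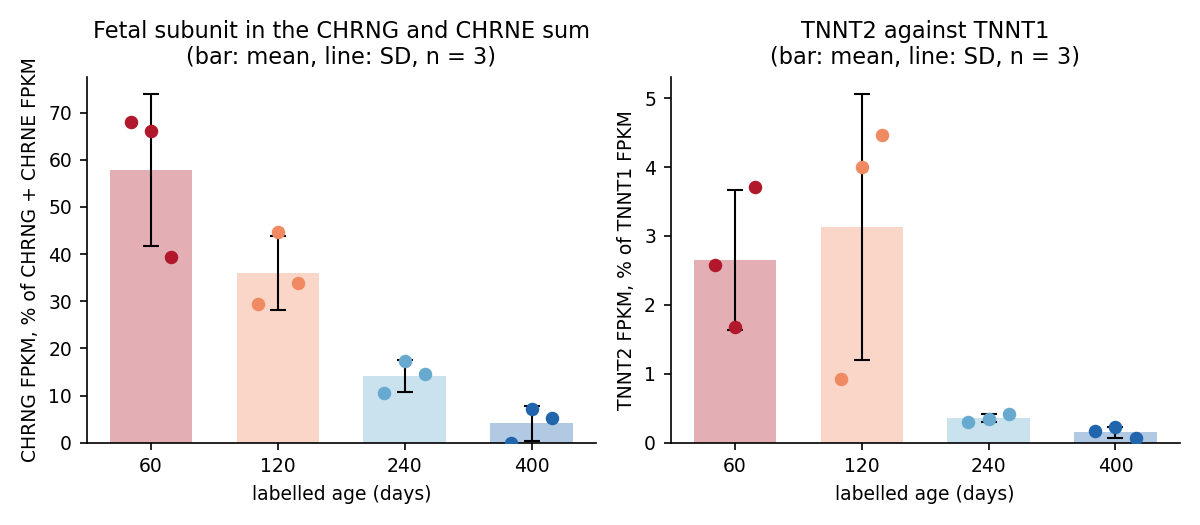
CHRNG as a percent of the summed FPKM of CHRNG and CHRNE (left) and TNNT2 FPKM as a percent of TNNT1 FPKM (right), by labelled age in days. Bars are means, lines the SD and points the 3 libraries. The mean CHRNG share falls from 57.8% to 4.15%, and the mean TNNT2 percent is 2.65 and 3.13 at the first 2 ages and 0.355 and 0.151 at the last 2.

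The likeness of CHRNG and TNNT2 was computed over all libraries and within ages. Over the 12 libraries Pearson's r of their log2(FPKM + 0.1) levels was 0.874, a value in which the shared course over age is included. On the deviations from the age means it was 0.434. Library 60d-3 shows the difference: it was 2.07 below the 60 d mean of CHRNG on the log2 scale but 0.15 below that of TNNT2. Library 120d-1 was the lowest of its age for both genes, by 0.91 and 1.29. CHRNG stood at 11.8, 19.9 and 1.93% of the TNNT2 level in the 60 d libraries, at 1.94 to 3.28% in those of 120 d, at 2.10 to 3.11% in those of 240 d and at 0 to 6.40% in those of 400 d. These ranges overlapped.

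**Figure D4:**
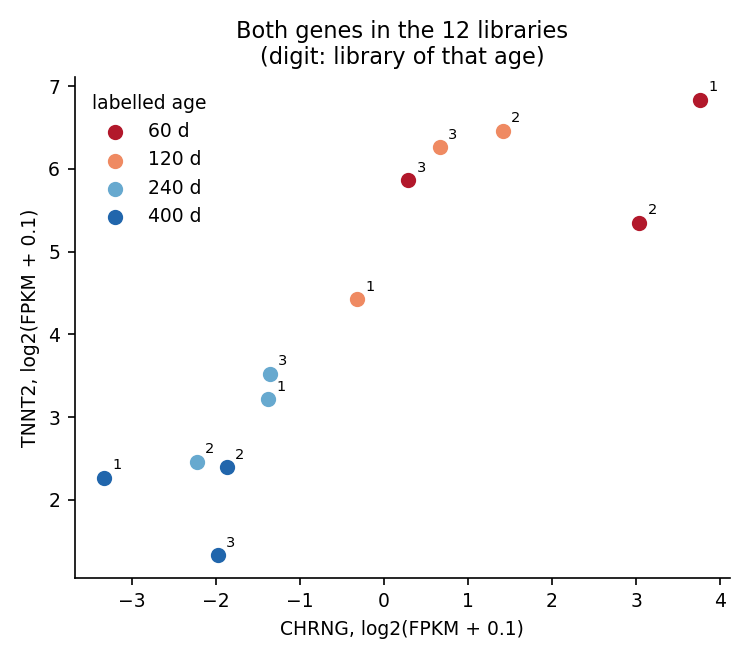
TNNT2 against CHRNG in the 12 libraries, both as log2(FPKM + 0.1), with colours for the labelled age and digits for the library of that age. The 6 libraries of 240 and 400 d lie at the lower left, and 60d-3 lies among those of 120 d.

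The genes with the most similar courses were ranked by Pearson's r of log2(FPKM + 0.1) over the 12 libraries, among 7636 other named features with a mean of at least 1 FPKM at 1 or more ages. For CHRNG these were ST3GAL4 (0.970), a sialyltransferase, PDXK (0.941), the kinase of vitamin B6, MED9 (0.936), ICAM3 (0.928) and NOP53 (0.928). ST3GAL4 had mean levels of 4.10, 2.95, 1.56 and 1.61 FPKM at the 4 ages. For TNNT2 they were BCAS1 (0.955), IRF2BPL (0.952), KIF22 (0.942), a mitotic kinesin, SEC61B (0.942), a subunit of the channel through which proteins enter the endoplasmic reticulum, and IRF7 (0.939). TNNT2 ranked 56th for CHRNG, and CHRNG ranked 135th for TNNT2. On the deviations from the age means, CHRNE ranked 39th for CHRNG, with r = 0.849, so the 2 alternative subunits were high and low in the same libraries of an age.

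Of the features within 50 kb of CHRNG 3 were tested, and 2 of them were called over the 4 ages. Of all features tested, 19.8% were called over the 4 ages, 11.2% with the lower level at the last age. CHRND, the delta subunit that fetal and adult receptors share, lies 4.13 kb away on the same strand. It had mean levels of 3.38, 1.59, 1.13 and 0.628 FPKM at the 4 ages, and its log2 level fell by 2.32 between the first and the last (SE 0.36, edgeR adjusted p over the 4 ages = 0.00712). PRSS56, a serine protease gene 12.0 kb away, fell by 3.03 (edgeR adjusted p = 0.0170). The feature on the other side, 1.69 kb away, had means of 12.2 to 15.4 FPKM and was not called (edgeR adjusted p = 0.926). Around TNNT2, neither LAD1 at 3.24 kb (edgeR adjusted p = 0.153) nor TNNI1, the slow-fibre troponin I, at 24.6 kb (edgeR adjusted p = 0.676) was called.

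Of 15 genes of the receptor and the synapse, 12 were matched and tested, of which 4 were called over the ages with the lower level at 400 d and 1 with the higher, and 7 were not called. Of all features 11.2% were called with the lower level at 400 d and 8.66% with the higher. The median log2 change of the 12 from 60 to 400 d was -0.83, against -0.07 over all features tested. The 4 were CHRND, AGRN, LRP4 and ACHE. AGRN encodes agrin, by which the nerve gathers receptors, and its means were 8.22, 5.94, 2.55 and 2.28 FPKM (edgeR adjusted p = 0.00472). LRP4, the agrin receptor, had 1.03, 1.10, 0.427 and 0.572 FPKM (edgeR adjusted p = 0.0422). ACHE, the esterase that clears acetylcholine, had 6.19, 4.04, 1.48 and 1.38 FPKM (edgeR adjusted p = 0.0353). The LRP4 call was lost without any 1 library other than 60d-1, 400d-1 and 400d-2 (edgeR adjusted p up to 0.104). The ACHE call was lost without any 1 of 60d-1, 60d-3, 120d-3, 240d-1, 240d-2, 400d-2 and 400d-3 (edgeR adjusted p up to 0.0755). SCN4A, the sodium channel of adult muscle, rose from 20.9 ± 1.80 to 52.3 ± 2.98 FPKM (edgeR adjusted p = 0.00560). CHRNA1, the alpha subunit that both receptor forms use, had means of 1.17, 1.60, 0.548 and 0.628 FPKM and was not called (edgeR adjusted p = 0.505), nor was the muscle-specific kinase MUSK (edgeR adjusted p = 0.583).

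Of the 7 other troponin genes looked for, 4 were matched and none of the 4 was called over the ages by edgeR or by DESeq2. Their median log2 change was -0.15 from 60 to 400 d. Of all features tested, edgeR called 19.8%, and the median log2 change of all was -0.07. They were TNNT1, TNNI1, the slow and cardiac troponin C TNNC1 (edgeR adjusted p = 0.519) and the fast troponin C TNNC2 (edgeR adjusted p = 0.218). TNNI1 had mean levels of 2703, 2023, 2284 and 2805 FPKM. TNNC1 had 5282, 3446, 3630 and 4232 FPKM.

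Of 10 other sarcomere genes, 6 were matched, of which 2 were called with the lower level at 400 d, with a median log2 change of -1.39 over the 6. Of all features tested, 11.2% were called lower at 400 d, and the median log2 change of all was -0.07. ACTC1, the actin of heart and of early skeletal muscle, had mean levels of 173, 88.2, 38.2 and 5.33 FPKM (edgeR adjusted p = 0.0125) and its log2 level fell by 5.0 between 60 and 400 d. Its sequence is close to that of ACTA1, whose level was 0 in all 60 d libraries and in 2 of the 3 at 120 d and at 400 d, so the sharing of reads between the actins is uncertain. MYL4, an atrial and embryonic myosin light chain, had mean levels of 1.04, 8.24, 0.529 and 0.0410 FPKM (edgeR adjusted p = 0.0215). Its 120 d mean came from libraries at 0.560 to 22.3 FPKM, and without library 120d-2, the highest, it fell under the count filter. The MYL4 call was also lost without any 1 of the 400 d libraries (edgeR adjusted p up to 0.0556). The embryonic myosin MYH3 had 18.1, 11.9, 9.45 and 5.20 FPKM and was not called by edgeR (adjusted p = 0.103), though DESeq2 called it (adjusted p = 0.0283). MYH8, the perinatal myosin, was listed at means of 4888 to 7148 FPKM (edgeR adjusted p = 0.420), but its neighbours MYH1, MYH2 and MYH4 could not be matched, and the split of reads within this family is uncertain.

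Of 12 genes of muscle formation and denervation, 9 were matched and 8 tested, and FGFBP1 was at 0 throughout. Of the 8, 3 were called with the lower level at 400 d and 1 with the higher, with a median log2 change of -1.20. The shares of all features tested were 11.2% lower and 8.66% higher, and the median log2 change of all was -0.07. MYOD1, a myogenic transcription factor, had mean levels of 57.8, 40.6, 7.48 and 10.4 FPKM (edgeR adjusted p = 0.00156). MYOG, the factor that drives differentiation of myoblasts, had 101, 44.6, 33.4 and 33.0 FPKM (edgeR adjusted p = 0.0221). MYMK, which fuses myoblasts, had 10.7, 9.41, 3.13 and 2.46 FPKM (edgeR adjusted p = 0.0289). HDAC4, a histone deacetylase linked to nerve input, had 2.63, 3.41, 3.32 and 4.24 FPKM (edgeR adjusted p = 0.0477). Leaving out 1 library lost the MYOG call for 60d-1 and 400d-2, the MYMK call for 60d-3, 240d-2, 240d-3 and each 400 d library and the HDAC4 call for each of the 12, with edgeR adjusted p of up to 0.0653, 0.0748 and 0.151. MYF5 and HDAC9, which edgeR did not call (adjusted p = 0.0572 and 0.0911), were called by DESeq2 with adjusted p of 0.0113 and 0.0310. NCAM1, the adhesion molecule of denervated fibres, had 7.30, 11.8, 13.0 and 10.4 FPKM and was not called (edgeR adjusted p = 0.559).

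**Figure D5:**
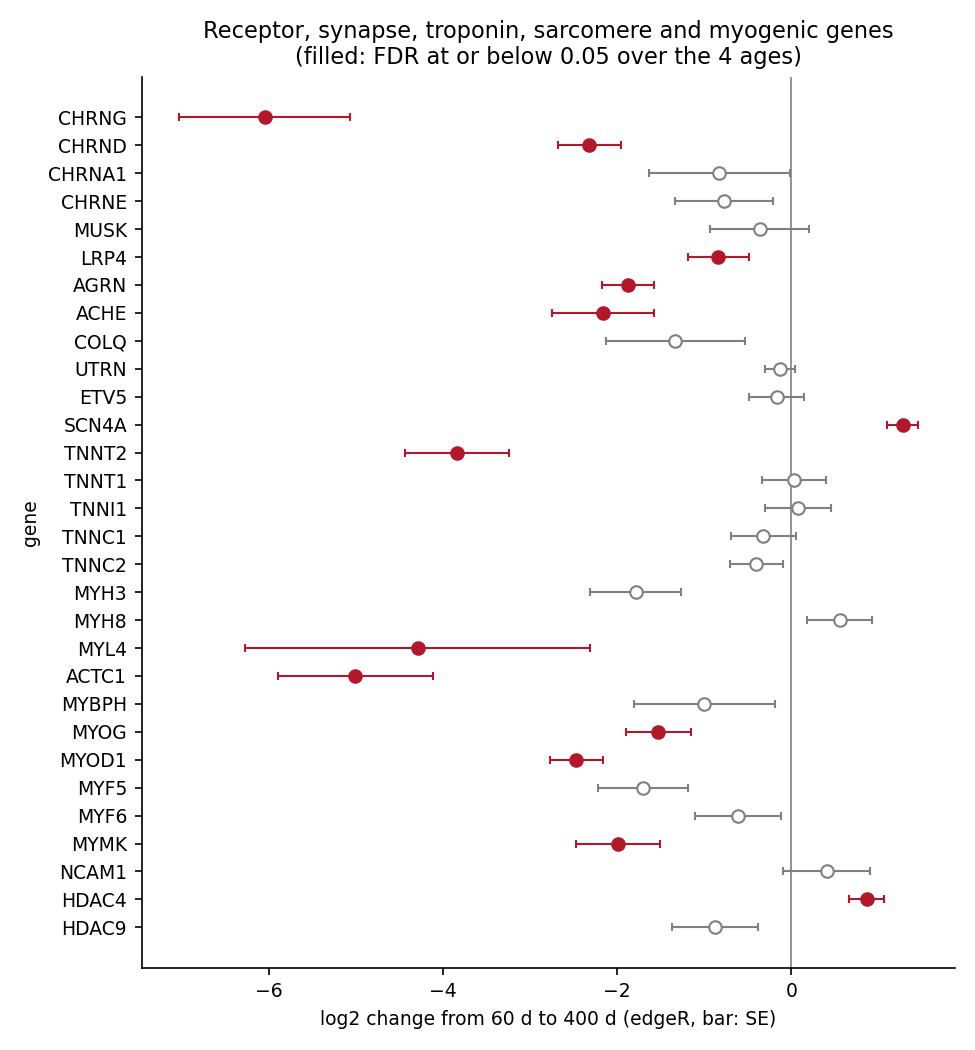
Log2 change from 60 to 400 d, with the SE from edgeR, of CHRNG, TNNT2 and most of the matched and tested genes of the receptor, synapse, troponin, sarcomere and myogenic lists. Filled marks passed an FDR of 0.05 over the 4 ages. CHRNG, at -6.05, and ACTC1, at -5.0, lie farthest to the left.

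Markers of other cells moved in part with age in the same libraries, and in whole muscle fewer cells of a type and less RNA per cell cannot be told apart. The 2 matched fibroblast markers of 3 summed to 509 to 1588, 768 to 1129, 412 to 598 and 183 to 407 FPKM at the 4 ages in order. COL3A1 was called lower (edgeR adjusted p = 0.0271), and DCN was not called (edgeR adjusted p = 0.254). The 4 smooth muscle markers summed to 299 to 470, 237 to 303, 182 to 317 and 131 to 175 FPKM, with CNN1 and TAGLN called lower. CNN1 had an edgeR adjusted p of 0.00874 and TAGLN one of 0.0164. MYH11 and ACTA2 were not called (edgeR adjusted p = 0.169 and 0.618), and MYH11 had means of 3.52, 2.48, 5.95 and 3.15 FPKM.

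The 3 leukocyte markers summed to 8.24 to 15.4, 10.4 to 35.8, 4.83 to 9.64 and 1.70 to 6.69 FPKM, with ITGB2 called lower (edgeR adjusted p = 0.0307). PTPRC and CD68 were not called (edgeR adjusted p = 0.0772 and 0.142). The satellite cell marker matched, MYF5, was at 3.20 to 5.14, 1.79 to 5.87, 0.934 to 2.28 and 0.637 to 1.37 FPKM at the 4 ages (edgeR adjusted p = 0.0572). The endothelial marker matched, PECAM1, was at 38.9 to 88.2, 42.3 to 63.9, 38.7 to 53.4 and 22.6 to 37.3 FPKM (edgeR adjusted p = 0.119). None of the 3 matched adipocyte markers of 5 was called by edgeR, and their sum was 6.91 to 40.1, 7.96 to 18.0, 18.8 to 31.5 and 3.6 to 28.3 FPKM. The part of these cells in the levels of CHRNG and TNNT2 was not tested.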

How the data were processed

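The authors mapped RNA-seq reads of 12 LD muscle libraries to Sscrofa10.2 and deposited the whole-number count of fragments per gene, not normalized, and FPKM values. Per the labels, the submitters' processing notes name Bowtie 0.12.2, Cufflinks and, though the features are of the pig, the mouse build mm8. A further normalized column was not used.

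Groups came from the sample labels and the 3 libraries of an age from the columns of its table. The counts were tested in R 4.3.3 with edgeR 4.0.16 (quasi-likelihood test, TMM factors) on features whose mean reached 10 counts at 1 or more ages, at an FDR of 0.05. DESeq2 1.42.0 was an alternative, as were other scaling, filters, thresholds, pseudocounts and ages, separate fits of pairs, and leaving out each library. The fits and the permutation tests were tested on simulated data. Permutation tests used log2(FPKM + 0.1) in Python 3.11.15 with numpy 2.4.6, pandas 2.3.3 and scipy 1.17.1, with figures by matplotlib 3.10.9. TNNT3 was meant to enter the troponin T ratio but could not be matched.

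Symbols were found for 11767 features, 11472 from a reference table and 295, CHRNG among them, from identifiers given with the study. For CHRNG the reference table has another identifier. The named genes are the members, the receptor subunits, all troponins, set genes of the sarcomere and myogenic lists, list genes past the FDR, genes within 50 kb and the 5 most similar. A few other list and marker genes are named where a statement turns on them. The members and lists were chosen with earlier results of these data known. A marker list is not reported here.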

Additional observations from a re-analysis of the deposited data

How the results depend on the processing

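CHRNG and TNNT2 kept their call over the 4 ages under each alternative tried, an FDR of 0.01 and DESeq2 included. Without any 1 library the edgeR adjusted p was 0.00359 to 0.0139 for CHRNG and 0.00436 to 0.0121 for TNNT2. Depth limits CHRNG at 240 and 400 d, with 0 to 8 counts per library.

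With the ages of the study's lists the directions turned, except from 240 to 400 d, where CHRNG changed by -2.30 and TNNT2 by -0.22. From 60 d to 120, 240 and 400 d, CHRNG then changed by 1.27, 6.05 and 3.75 on the log2 scale and TNNT2 by 0.80, 3.84 and 3.62. From 120 d to 240 and 400 d, CHRNG changed by 4.78 and 2.48 and TNNT2 by 3.04 and 2.82. From 60 to 400 d, the log2 FPKM level then differed by 2.97 for CHRNG, 3.72 for TNNT2, 2.72 for CHRNG to CHRNE and 4.22 for TNNT2 to TNNT1. The numbers of features called were 1509 from 120 to 240 d, 3124 from 60 to 240 d, 1847 from 60 to 400 d and 682 from 120 to 400 d.

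At an FDR of 0.01 with a 2-fold change, 4 pair calls were lost: those of CHRNG over 60 to 240 d (-4.78) and 120 to 400 d (-3.75), and those of TNNT2 over 120 to 240 d (-2.82) and 60 to 240 d (-3.04). CHRNG from 120 to 240 d was gained by DESeq2 (-2.53) and by a separate fit (-2.49). Features called numbered 523 over the 4 ages at an FDR of 0.01, and with the 2-fold rule 0, 112, 833 and 155 from 120 to 240, 60 to 240, 60 to 400 and 120 to 400 d. DESeq2 called 4177 over the 4 ages, and 70, 1767, 58 and 2356 from 60 to 120, 120 to 240, 240 to 400 and 60 to 240 d. Separate fits called 238 from 60 to 240 d and 1825 from 60 to 400 d. Without a count filter 2 were called from 60 to 120 d.

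Leaving out 1 library, CHRNG changed by -2.86 to -1.95 from 120 to 240 d, -5.29 to -4.12 from 60 to 240 d, -4.43 to -3.11 from 120 to 400 d, -6.73 to -5.38 from 60 to 400 d, -2.81 to -1.64 from 60 to 120 d and -1.95 to -0.64 from 240 to 400 d, and TNNT2 by -3.25 to -2.51 from 120 to 240 d and -3.32 to -2.48 from 60 to 240 d. TNNT2 from 60 to 120 d went from -0.50 to 0.34, turning without 60d-1 (0.34) or 120d-1 (0.24). Features called ranged over 1375 to 2894 for the 4 ages, 0 to 1376 from 120 to 240 d, 255 to 1552 from 60 to 240 d, 1335 to 3227 from 60 to 400 d and 213 to 2413 from 120 to 400 d. The uncalled list genes MUSK and TNNC1 turned direction without 1 library (highest adjusted p 0.864 and 0.875), and TNNT1 at a mean of 50 counts (0.637). The causes were not tested. No paired analysis was possible because the libraries came from 12 different pigs and the labels give them no replicate numbers.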
